A study of Mus musculus with 24 samples.

Results

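Pum2, which encodes an RNA-binding Pumilio protein, and 8 genes for subunits of the CCR4-NOT deadenylase were followed through total and ribosome-bound RNA of mouse macrophages. The 9 genes (Pum2, Cnot1, Cnot2, Cnot3, Cnot4, Cnot6, Cnot6l, Cnot7 and Cnot8) were taken by gene symbol from the 52636 genes in each deposited table. Pum2 was chosen by its measured values, namely a higher level under hypoxia in total RNA of knockout macrophages. Its values in that contrast, and in every contrast that uses the KO total RNA libraries, are therefore given as a description without a test, and counts of calls there are over the 8 CCR4-NOT genes. These 8 genes and the pathway lists below were also chosen with earlier results of these data known. Their p-values and counts are to be read with that limit.

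The cells were bone marrow-derived macrophages (BMDM) from 3 mice labelled KO, with both copies of Elavl1 floxed, and 3 mice labelled HET, with 1 floxed and 1 intact copy. Elavl1 encodes HuR, which binds messenger RNAs with AU-rich stretches. Mice of both genotypes carried Csf1r-iCre, a Cre recombinase under the promoter of a macrophage growth factor receptor, and an EGFP-tagged ribosomal protein L10a, so that the HET mice are not wild type. Marrow cells of mice aged 8 to 12 weeks grew for 6 days in L cell-conditioned medium, and cells of each mouse were then held for 18 h at 1% oxygen (hypoxia) or 20% oxygen (normoxia). Each lysate was split. The EGFP tag served to pull down ribosomes with their messenger RNA (translating ribosome affinity purification, TRAP), and the remainder gave total RNA. The 24 poly(A) libraries formed 8 groups of 3, with the same 6 mice in both oxygen conditions and both fractions.

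Values were TPM, the share of a library's transcripts that a gene takes after scaling to gene length, and every library summed to between 999629 and 999969, so read depth was unknown. Genes above 0 numbered 13128 to 16098 in TRAP libraries and 16495 to 17343 in total RNA libraries. All 9 macrophage markers were detected, with summed levels of 14372 to 21460 TPM in KO total RNA and 23047 to 27234 TPM in HET total RNA. Summed neutrophil markers reached 101 TPM in hypoxic and 63.6 TPM in normoxic KO total RNA, against 34.6 TPM in HET total RNA. In TRAP RNA the maximum was 92.2 TPM in hypoxic and 73.3 TPM in normoxic KO cells, against 36.3 TPM in HET cells. The TRAP medians in hypoxia and normoxia were 14.2 and 10.6 TPM in KO and 13.8 and 12.4 TPM in HET cells. Fibroblast markers reached a maximum of 60.3 TPM in KO and 30.8 TPM in HET total RNA, and 3.29 TPM in TRAP RNA. Their total RNA medians in hypoxia and normoxia were 10.4 and 8.09 TPM in KO and 8.95 and 7.19 TPM in HET cells. Lymphocyte markers stayed at or below 0.190 TPM. The part of other cells in the members' values was not tested. In total RNA Elavl1 had 29.4, 34.9 and 26.1 TPM in hypoxic KO cells and 35.1, 34.8 and 36.1 TPM in normoxic KO cells, against 21.2, 59.8 and 24.9 TPM in hypoxic HET cells and 29.9, 30.8 and 35.7 TPM in normoxic HET cells. In TRAP RNA Elavl1 had 1.75, 23.5 and 12.2 TPM in hypoxic KO cells and 17.4, 17.7 and 0.840 TPM in normoxic KO cells, against 17.2, 16.3 and 10.5 TPM in hypoxic HET cells and 18.1, 16.8 and 12.2 TPM in normoxic HET cells. The whole-gene level of Elavl1 overlapped between the labelled genotypes in all 4 pairs of groups, and the part of the gene removed by Cre is not given in the labels, so the genotypes below are those of the labels. The normoxic total RNA libraries of mice HET-129 and KO-301 deviated from their group means together, with a Pearson correlation of 0.653 across genes. The same value was 0.386 in TRAP RNA, and no other pair of different mice was compared.

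Pumilio proteins bind a short UGUA-containing element in the 3' untranslated regions of messenger RNAs and recruit the CCR4-NOT complex. The complex shortens the poly(A) tail, a step that commonly leads to translational repression and decay. Cnot1 encodes its scaffold, Cnot2 and Cnot3 encode the NOT module, and Cnot4 encodes a RING-type ubiquitin ligase whose yeast counterpart is a stable subunit. The nucleases come as paralogue pairs, Cnot6 and Cnot6l of the CCR4 type and Cnot7 and Cnot8 of the CAF1 type. In macrophages the complex is known for removing cytokine messages that tristetraprolin (Zfp36) marks for decay.

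Pumilio elements in the 3' untranslated regions of these genes are printed because they show which members carry the element that Pum2 itself recognises. The motif TGTANATA was searched on the transcript strand of 1 GENCODE transcript per gene on GRCm38, and 6 of the 9 genes held it. Pum2 and Cnot7 held 2 copies each, and Cnot1, Cnot2, Cnot6l and Cnot8 held 1 copy each. Cnot3, Cnot4 and Cnot6 held none. Of the 3' untranslated regions of 10626 genes 24.5% held at least 1 copy. Among regions of like length the share was 43.3% for Pum2, 74.1% for Cnot6l and 26.5% for Cnot7. It was 18.1% for Cnot1, 21.5% for Cnot2 and 19.9% for Cnot8. For the genes without the element it was 10.1% for Cnot3, 26.9% for Cnot4 and 10.4% for Cnot6. The median number of copies at like length was 2 for Cnot6l and 0 for each other member. Whether 6 of 9 exceeds these shares was not tested. A match is a run of letters and was not tested as a binding site. The element is in capitals in each line, written 5' to 3' as DNA.
Pum2, site 1 of 2, chr12:8750157-8750180, plus strand: tatagagaTGTATATAgaattata
Pum2, site 2 of 2, chr12:8750410-8750433, plus strand: tacagaatTGTATATActtataat
Cnot1, chr8:95720162-95720185, minus strand: tgaacttgTGTAAATAtatgaaag
Cnot2, chr10:116485486-116485509, minus strand: tacgaatgTGTATATAttatatat
Cnot6l, chr5:96075178-96075201, minus strand: aagtttgaTGTAAATAaaatattc
Cnot7, site 1 of 2, chr8:40493923-40493946, minus strand: cacatgctTGTATATAggttttat
Cnot7, site 2 of 2, chr8:40492556-40492579, minus strand: aaagctttTGTAAATAaaggcttc
Cnot8, chr11:58118531-58118554, plus strand: aagatgctTGTAAATAttatttat

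Promoters were searched for ACGTG, 1 form of the core of the element bound by hypoxia-inducible factors, and for its reverse complement CACGT. The form GCGTG was left out of this search, so a window without ACGTG or CACGT may still hold that core. The RefSeq table of promoter windows on GRCm38.p6, from 250 bases before to 50 bases after a start, had 15 windows for 7 of the 9 genes. Of its 32851 windows 19.6% held ACGTG or CACGT. All 3 windows of Pum2 lacked these letters, as did those of Cnot2, Cnot3 and Cnot6. GCGTG or its reverse complement CACGC can be read in the Pum2 windows chr12:8674009-8674308 and chr12:8673884-8674183, and not in chr12:8674431-8674730. Windows of Cnot4, Cnot6l and Cnot8 hold it too. The share of all windows with GCGTG or CACGC was not counted. ACGTG or CACGT stood in 1 of 3 windows of Cnot6l and in 2 of 4 windows of Cnot8, which overlap and hold the same single site. The single Cnot4 window held ACGTG on both strands as the overlapping run CACGTG. It is printed because Cnot4 was the member that was lower in hypoxia in every mouse, as described below. The capitals mark that run.
Cnot4 promoter, chr6:35133688-35133987, minus strand: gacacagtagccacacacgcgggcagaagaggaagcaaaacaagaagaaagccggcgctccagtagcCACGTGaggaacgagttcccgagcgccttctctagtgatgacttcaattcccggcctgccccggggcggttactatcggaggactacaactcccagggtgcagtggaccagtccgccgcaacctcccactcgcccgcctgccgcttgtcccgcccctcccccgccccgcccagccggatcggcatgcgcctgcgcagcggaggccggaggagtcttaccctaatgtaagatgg

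All 9 genes were expressed in every library. Averaged over both oxygen conditions of a mouse, levels in TRAP RNA were highest for Cnot8 (37.5 ± 6.98 TPM, SD, n = 6 mice) and lowest for Cnot6l (6.05 ± 2.56 TPM). In total RNA the order also began with Cnot8 (50.6 ± 4.69 TPM), followed by Pum2 (40.5 ± 15.3 TPM), and it ended with the scaffold gene Cnot1 (17.2 ± 5.67 TPM). Between these, mean total RNA levels lay within a narrow band, with Cnot6 at 35.8 TPM, Cnot7 at 31.0 TPM, Cnot2 at 30.8 TPM, Cnot3 at 28.7 TPM, Cnot6l at 28.2 TPM and Cnot4 at 26.3 TPM. In TRAP RNA Cnot3 at 23.8 TPM and Cnot7 at 20.0 TPM came after Cnot8, then Cnot2 at 14.5 TPM, Pum2 at 13.8 TPM, Cnot4 at 13.6 TPM, Cnot6 at 10.2 TPM and Cnot1 at 7.62 TPM. The ranges of every pair of neighbours in either order overlapped over the 6 mice. Compared within a mouse, Cnot8 was above Cnot3 and Cnot7 was above Cnot2 in TRAP RNA in 6 of 6 mice, and the other neighbours kept their order in 3 to 5 of 6 mice. Whether fewer cells or less RNA per cell lies behind a level cannot be told apart in such bulk samples.

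Pum2 lies at chr12:8674134-8752581 on the plus strand of GRCm38. In total RNA of KO mice it had 52.2, 54.1 and 41.3 TPM in hypoxia and 20.8, 20.7 and 16.9 TPM in normoxia, in the order KO-176, KO-281 and KO-301. In total RNA of HET mice it had 55.9, 56.4 and 21.5 TPM in hypoxia and 64.0, 59.7 and 23.0 TPM in normoxia, in the order HET-97, HET-102 and HET-129. The KO groups did not overlap, as in 6.04% of genes in total RNA, while both HET groups held a pair of mice near 60 TPM and mouse HET-129 near the normoxic KO level. Hypoxic KO cells averaged 49.2 ± 6.89 TPM and normoxic KO cells 19.5 ± 2.19 TPM (SD, n = 3 each), a log2 difference of 1.29. The 3 KO mice had differences of 1.29, 1.35 and 1.24, and the 3 HET mice had -0.19, -0.08 and -0.09, all on the log2(TPM + 1) scale. Differences of opposite sign in all KO and all HET mice were seen in 1.96% of 12403 genes in total RNA. The KO values chose Pum2, so this share and that of KO groups without overlap are a description, without a test.

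**Figure D1:**
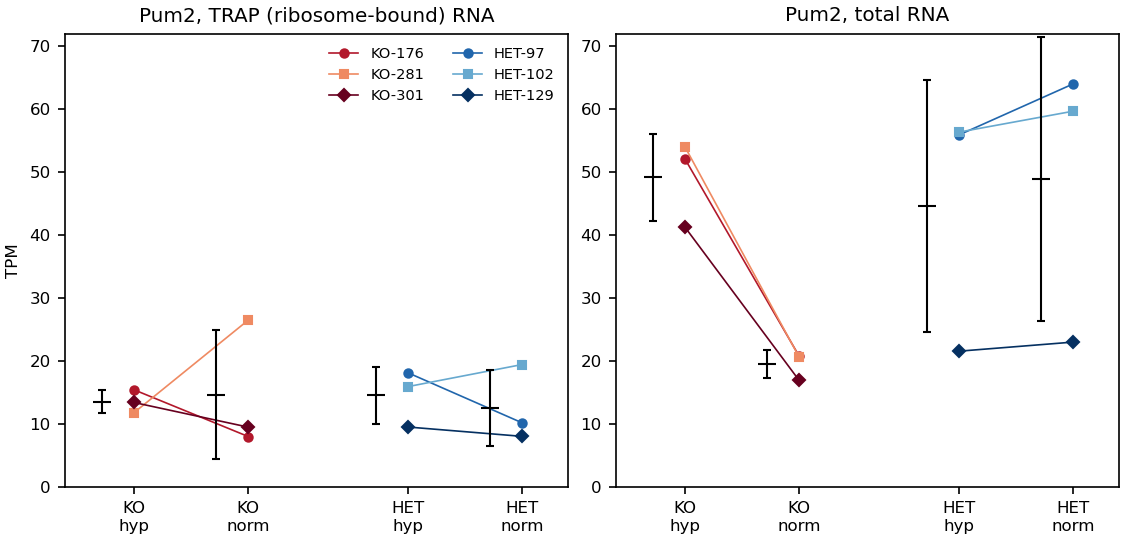
Pum2 level in TPM in TRAP and total RNA, on the same scale, by genotype and oxygen. Each coloured point is a library, lines join the libraries of a mouse, and the black bar gives the mean with its SD (n = 3). In total RNA the hypoxic KO libraries sit between 41.3 and 54.1 TPM and the normoxic KO libraries between 16.9 and 20.8 TPM, whereas the HET lines are nearly flat.

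The 12 total RNA values of Pum2 fell into a low set up to 23.0 TPM and a high set from 41.3 TPM, with none between. The step between these neighbours was 1.80-fold, and the other 8 members had no step above 1.27-fold. A step as large with at least 3 libraries on each side was present in 5.07% of 7179 genes with a mean of at least 10 TPM. The step parts the KO libraries that chose Pum2, so its size and this share are a description, and nothing is read from them. The low set held the normoxic libraries of the 3 KO mice and both libraries of HET-129, and the high set held the hypoxic libraries of the 3 KO mice and both libraries of HET-97 and HET-102. In the contrast that chose Pum2, 0 of the 8 CCR4-NOT genes passed an adjusted p of 0.05 in the limma-trend fit, beside 0% of 12403 genes, and Cnot4, 1 of 8, had an unadjusted p under 0.05, beside 3.21% of genes. With the mouse as a block 0 of the 8 passed, beside 0.0242% of genes.

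The HET cells give a contrast that did not choose Pum2. There its log2 difference in total RNA was -0.12, lower in hypoxia in 3 of 3 mice by at most 0.19. The fit took its variance from all 12 total RNA libraries, including the KO libraries that chose Pum2, so Pum2 is given without a test here too. In limma-trend 0 of the 8 CCR4-NOT genes passed, beside 0% of 12403 genes. An unadjusted p under 0.05 was found for 0 of the 8, beside 2.48% of genes. With the mouse as a block 0 of the 8 passed, beside 0.0403% of genes.

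Ribosome-bound Pum2 levels were lower and showed no split by oxygen. In TRAP RNA of KO mice it had 15.4, 11.8 and 13.4 TPM in hypoxia and 7.99, 26.5 and 9.48 TPM in normoxia. In TRAP RNA of HET mice it had 18.1, 15.9 and 9.50 TPM in hypoxia and 10.2, 19.4 and 8.01 TPM in normoxia. The oxygen groups overlapped in both genotypes, and mouse KO-281, with 26.5 TPM in normoxia, went against the other 2 KO mice. The log2 difference was 0.07 ± 0.45 in KO mice (SE, 95% interval -0.90 to 1.05) and 0.24 ± 0.45 in HET mice (-0.73 to 1.22), neither past the threshold in limma-trend (adjusted p = 1.00 for both). These TRAP libraries come from the lysates that chose the gene and are no independent repeat. The oxygen effect in TRAP RNA minus that in total RNA averaged -0.43 for Pum2 over 6 mice, given without a test. The same difference passed for 0 of the 8 CCR4-NOT genes (limma-trend), beside 0% of 12918 genes.

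Genes whose level was most like that of Pum2 over the 12 total RNA libraries were found by Pearson correlation among 6847 genes with a mean of at least 10 TPM. They were Camk2g (r = 0.89), Sec61a1 (0.89), Mroh1 (0.88), Dnal4 (0.87) and Ndufv1 (0.86). The libraries share mice, so these values are a description. Among the other members r with Pum2 lay between -0.67 for Cnot4 and 0.62 for Cnot1. In TRAP RNA the most like of 5251 genes were Fam216a (0.87), Psat1 (0.82), Tdp1 (0.81), Gemin7 (0.81) and Cyb5r3 (0.79), none of them on the total RNA list.

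Cnot4, at chr6:35022065-35133724 on the minus strand, was lower in hypoxia in 6 of 6 mice in both fractions. In TRAP RNA it had 9.06, 10.5 and 11.0 TPM in hypoxic and 15.6, 17.3 and 21.7 TPM in normoxic KO cells, and 10.8, 10.3 and 12.0 TPM in hypoxic and 13.8, 15.9 and 14.9 TPM in normoxic HET cells. In total RNA it had 19.0, 23.5 and 28.1 TPM in hypoxic and 27.4, 37.1 and 31.8 TPM in normoxic KO cells, and 22.9, 20.9 and 23.1 TPM in hypoxic and 25.1, 25.7 and 31.0 TPM in normoxic HET cells. The 6 hypoxic and 6 normoxic values did not overlap in TRAP RNA, as in 0.274% of 11676 genes. They overlapped in total RNA, where 0 of 9 members were apart beside 0.669% of genes. A lower level in hypoxia in all 6 mice was seen in 4.87% of genes in TRAP RNA, in 9.28% in total RNA and in 2.45% of 11420 genes in both.

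The mean log2 difference of Cnot4 over 6 mice was -0.59 ± 0.13 in TRAP RNA (SE, 95% interval -0.88 to -0.30, limma-trend, adjusted p = 0.173) and -0.36 ± 0.08 in total RNA (-0.55 to -0.16, adjusted p = 0.0599). Neither passed the threshold over all genes. Over the 12 alternative settings adjusted p ran from 0.132 to 1.00 in TRAP RNA and from 0.0582 to 0.746 in total RNA, and the difference kept its sign in each. Without mice HET-129 and KO-301 it was -0.58 in TRAP RNA and -0.39 in total RNA. By genotype the TRAP difference was -0.77 ± 0.22 in KO mice and -0.40 ± 0.22 in HET mice, with an interaction of -0.38 ± 0.31 that did not pass (adjusted p = 1.00). The fits by genotype and of the interaction did not pair the libraries of a mouse.

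**Figure D2:**
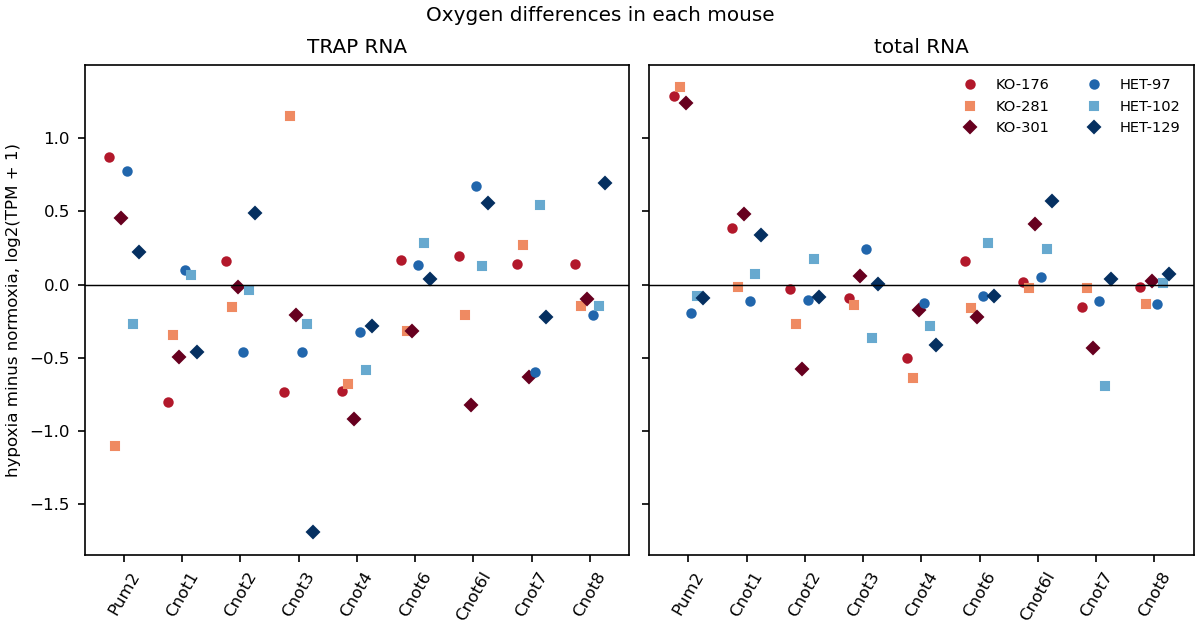
Hypoxia minus normoxia on the log2(TPM + 1) scale for each of the 6 mice, in TRAP and total RNA. Pum2 splits by genotype in total RNA, with 1.24 to 1.35 in KO mice and -0.19 to -0.08 in HET mice, and does not in TRAP RNA. All 6 points of Cnot4 lie below 0 in both panels.

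The scaffold gene Cnot1 lies at chr8:95719451-95807464 on the minus strand. Its ribosome-bound level was lower in hypoxia in 3 of 3 KO mice, with 4.92, 6.47 and 4.64 TPM in hypoxia and 9.30, 8.50 and 6.95 TPM in normoxia. In TRAP RNA of HET mice it had 9.79, 7.37 and 7.19 TPM in hypoxia and 9.09, 7.004 and 10.3 TPM in normoxia. The KO groups did not overlap, which held for 2 of 9 members (Cnot1 and Cnot4) beside 6.01% of genes in TRAP RNA. The difference of -0.55 ± 0.26 did not pass (limma-trend, adjusted p = 1.00). That fit did not pair the libraries of a mouse, and with the mouse as a block 0 of 9 members passed. In total RNA Cnot1 was instead higher in hypoxia in 4 of 6 mice, by 0.19 ± 0.10 over all 6 (adjusted p = 0.291), ranging from 12.7 to 25.9 TPM in hypoxia and from 9.20 to 28.1 TPM in normoxia. Its oxygen effect in TRAP RNA minus that in total RNA was -0.52 ± 0.21, and it was the 1 of the 8 CCR4-NOT genes with an unadjusted p under 0.05, beside 5.48% of genes, and did not pass after adjustment (adjusted p = 0.816).

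Of the NOT module, Cnot2 (chr10:116485161-116581511, minus strand) and Cnot3 (chr7:3645268-3661109, plus strand) showed no oxygen difference past the threshold. In total RNA Cnot2 had 29.1, 21.4 and 25.8 TPM in hypoxic and 29.7, 26.0 and 39.0 TPM in normoxic KO cells, lower in hypoxia in 3 of 3 mice. HET cells held it at 32.7, 33.8 and 32.7 TPM in hypoxia and 35.3, 29.8 and 34.7 TPM in normoxia. Over 6 mice its difference was 0.00 ± 0.14 in TRAP RNA and -0.15 ± 0.10 in total RNA. In TRAP RNA Cnot2 averaged 14.4 ± 0.88 TPM in hypoxia and 14.6 ± 2.56 TPM in normoxia (SD, n = 6). Cnot3 differed in opposite directions between mice there, with 46.2 TPM in hypoxic KO-281 against 20.3 TPM in its normoxic library, and 10.7 TPM in hypoxic HET-129 against 36.9 TPM in its normoxic library. Its mean difference was -0.37 ± 0.31 in TRAP RNA and -0.05 ± 0.08 in total RNA. Cnot3 overlaps Leng1 on the opposite strand, and since the use of strand in counting is not stated, reads of Leng1 may be included.

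**Figure D3:**
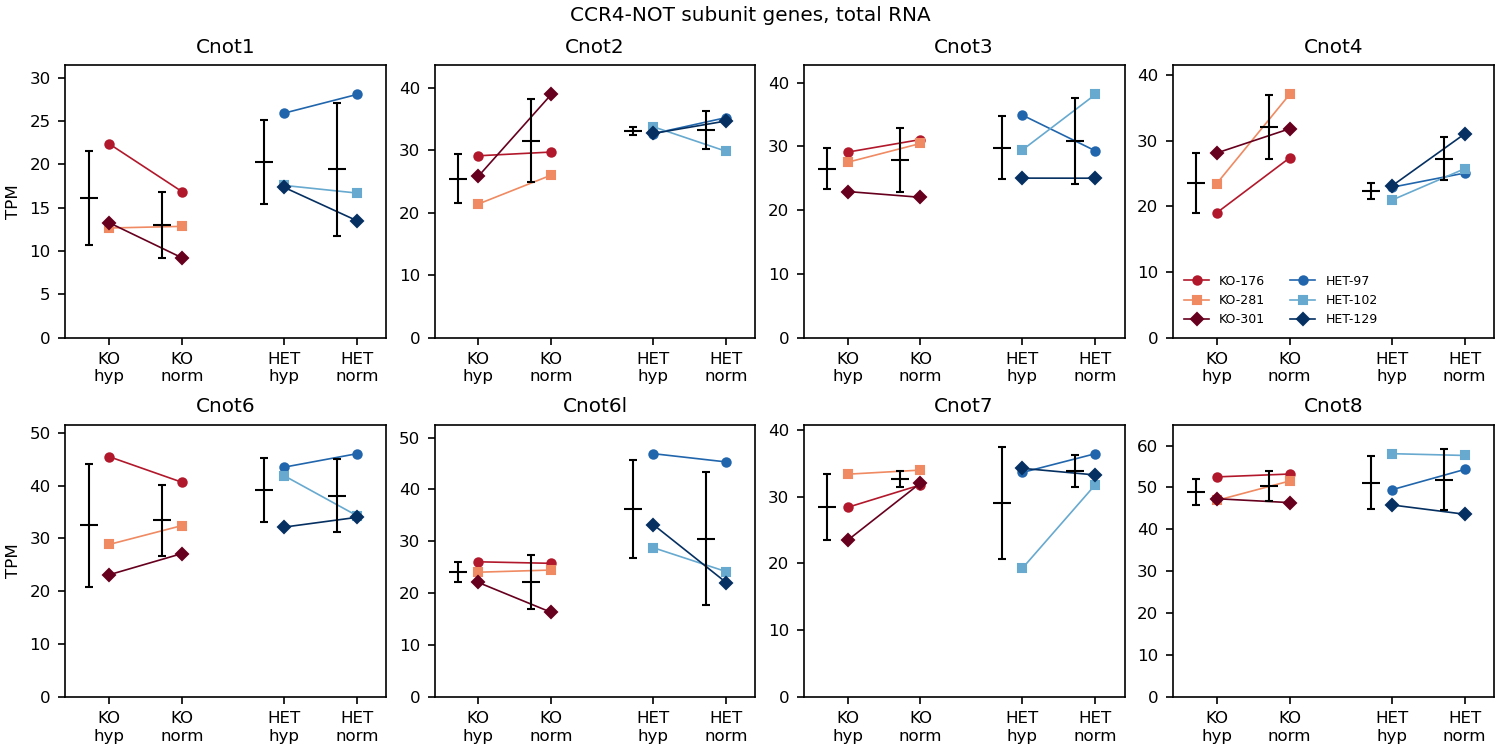
Total RNA level in TPM of the 8 CCR4-NOT genes by genotype and oxygen, each panel on its own scale from 0. Points are libraries, lines join the libraries of a mouse, and black bars give the mean with its SD (n = 3). Cnot4 lines run upward to the normoxic libraries in all 6 mice, whereas Cnot8 stays between 43.6 and 58.1 TPM.

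None of the nuclease genes passed the threshold for oxygen. The CAF1-type Cnot8 (chr11:58104153-58118594, plus strand) averaged 37.4 ± 4.62 TPM in hypoxia and 37.5 ± 10.2 TPM in normoxia in TRAP RNA, and 50.01 ± 4.61 TPM and 51.1 ± 5.22 TPM in total RNA (SD, n = 6), with a total RNA difference of -0.03 ± 0.05 and an interval of -0.15 to 0.10. Its partner Cnot7 (chr8:40492540-40515847, minus strand) averaged 28.8 ± 6.22 TPM in hypoxic and 33.2 ± 1.82 TPM in normoxic total RNA, lower in hypoxia in 5 of 6 mice with a log2 difference of -0.23 and an adjusted p of 0.241 in limma-trend. The widest difference was in HET-102, which had 19.3 TPM in hypoxia and 31.8 TPM in normoxia. Cnot7 overlaps Zdhhc2 and Vps37a on the opposite strand, so its reads carry the same doubt as those of Cnot3.

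Of the CCR4-type pair, Cnot6 (chr11:49671503-49712723, minus strand) had a difference of 0.00 ± 0.13 in TRAP RNA and -0.02 ± 0.08 in total RNA, with an interval of -0.20 to 0.17 in total RNA. Cnot6l (chr5:96070333-96164171, minus strand) averaged 30.2 ± 9.08 TPM in hypoxic and 26.3 ± 9.88 TPM in normoxic total RNA, higher in hypoxia in 5 of 6 mice by 0.21 ± 0.09 (adjusted p = 0.234). Mouse HET-97 held both the hypoxic maximum of 46.9 TPM and the normoxic maximum of 45.3 TPM. In TRAP RNA the mean difference of Cnot6l was 0.09 ± 0.21. Paralogues of a pair may share reads, and how such reads were assigned is not stated.

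**Figure D4:**
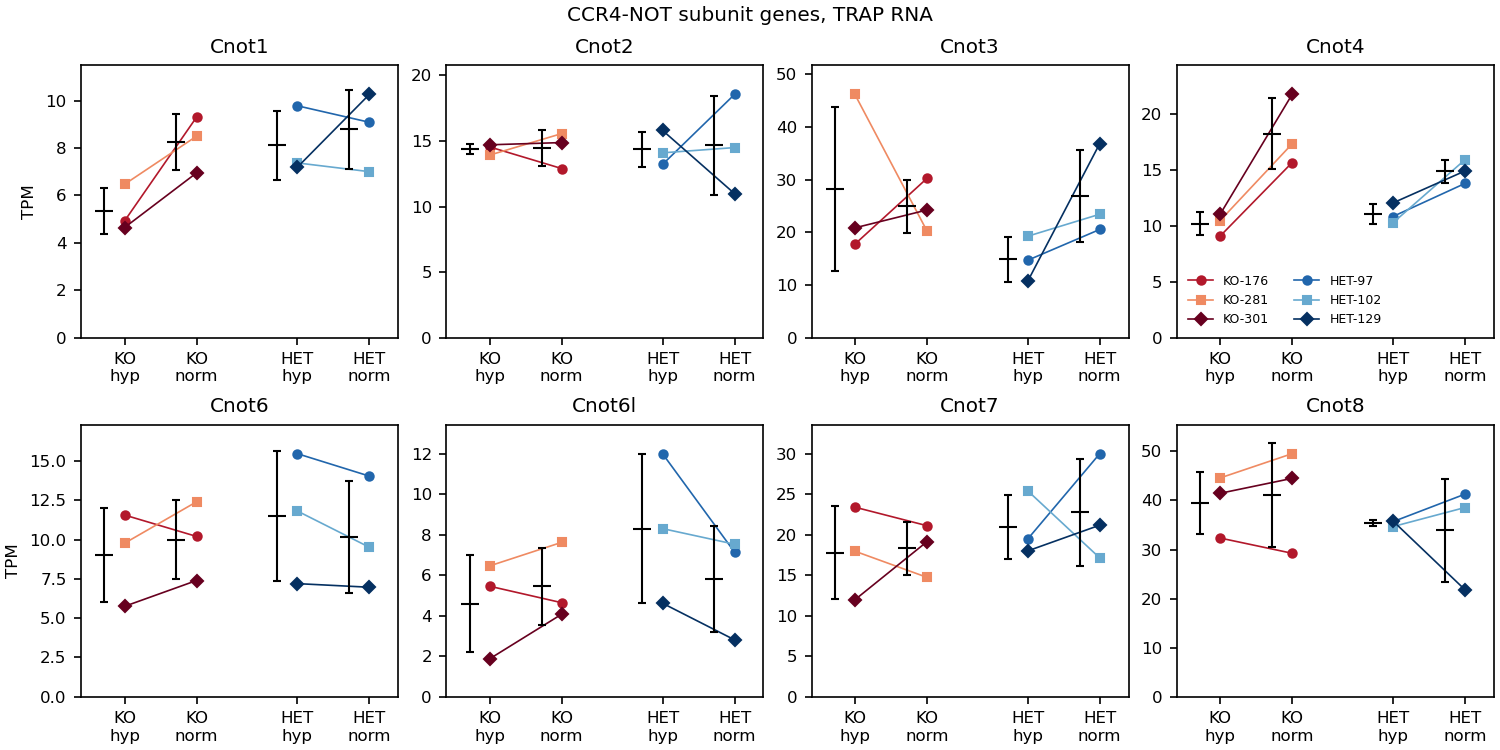
TRAP RNA level in TPM of the 8 CCR4-NOT genes, drawn as for total RNA. The hypoxic Cnot4 libraries lie between 9.06 and 12.0 TPM and the normoxic ones between 13.8 and 21.7 TPM, and Cnot3 spans 10.7 to 46.2 TPM.

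Over 6 mice, 0 of 9 members passed the threshold for hypoxia against normoxia in TRAP RNA, beside 0.0343% of 11676 genes, and 0 of the 8 CCR4-NOT genes passed in total RNA, beside 3.97% of 12403 genes. An unadjusted p under 0.05 was found for Cnot4 in each fraction, 1 of 9 members beside 14.7% of genes in TRAP RNA and 1 of the 8 beside 22.6% in total RNA. The total RNA count depended on scaling. It was 3 of the 8 with size factors, beside 2890 of 12403 genes, and 3 of the 8 with quantile normalization, beside 2849. Within TRAP RNA 0 of 9 members passed in KO or HET mice, beside 0% of genes in each. Cnot4 in KO mice was the 1 member of 9 with an unadjusted p under 0.05 (limma-trend). The shares of all genes were 2.48% in KO mice and 2.21% in HET mice. These fits did not pair the libraries of a mouse. With the mouse as a block the unadjusted count was 2 of 9 members in KO mice, beside 1036 of 11676 genes. In HET mice it was 1 of 9, beside 942 of 11676 genes, and 0 of 9 members passed in either genotype. The nuclear RNA Malat1 fell in hypoxia in total RNA, with a log2 difference of -1.16 ± 0.10 (limma-trend, adjusted p = 0.00793). The nuclear RNAs Malat1, Neat1, Meg3 and Kcnq1ot1 summed in TRAP RNA to 177 to 244 TPM in hypoxic and 51.1 to 148 TPM in normoxic KO libraries. In HET libraries they summed to 11.3 to 76.9 TPM in hypoxia and 29.5 to 130 TPM in normoxia. The part of nuclear RNA in the members' values was not tested.

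No tested member differed between KO and HET mice past the threshold. In TRAP RNA 0 of 9 members passed, beside 0.00856% of 11676 genes in hypoxia and 0% in normoxia, and unadjusted p under 0.05 came to 0 of 9 members beside 3.69% and 3.06% of genes in the same order. In total RNA 0 of the 8 CCR4-NOT genes passed, beside 0% of genes in both oxygen conditions, and unadjusted p under 0.05 came to 0 of the 8 beside 3.47% of genes in hypoxia and 5.64% in normoxia. The interaction of genotype and oxygen called 0 of 9 members in TRAP RNA and 0 of the 8 in total RNA, beside 0% of genes in each, with unadjusted p under 0.05 for 0 of 9 beside 1.23% of genes in TRAP RNA and for 0 of the 8 beside 0.847% in total RNA.

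A few members had KO values all on one side of the HET values. In TRAP RNA this held in hypoxia for Cnot1, at 4.64 to 6.47 TPM in KO cells and 7.19 to 9.79 TPM in HET cells, 1 of 9 members beside 10.2% of genes, and in normoxia for 0 of 9 beside 6.05%. In total RNA it held in hypoxia for Cnot2, at 21.4 to 29.1 TPM in KO cells and 32.7 to 33.8 TPM in HET cells, and for Cnot6l, at 22.1 to 26.0 TPM in KO cells and 28.8 to 46.9 TPM in HET cells, 2 of 9 beside 8.48% of genes. In normoxia it held for Pum2, at 16.9 to 20.8 TPM in KO cells and 23.0 to 64.0 TPM in HET cells, 1 of 9 beside 10.2% of genes, in KO libraries that chose the gene. Counts of 1 or 2 members beside such shares are not read as a result about the members. The summed macrophage markers were also lower in every KO than in every HET library of total RNA, and their part in these values was not tested.

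Mean ribosome-bound levels of all 9 genes were lower than total RNA levels of the same lysates, and 8 of the 8 CCR4-NOT genes passed the threshold, beside 72.3% of 12918 genes called in either direction and 64.2% called lower. The largest differences were those of the CCR4-type nuclease genes, -2.10 ± 0.15 for Cnot6l and -1.74 ± 0.11 for Cnot6 (SE, limma-trend over 6 mice, adjusted p = 9.95e-06 and 9.15e-06). Pum2 stood at -1.42, given without a test. Cnot1 at -1.05 ± 0.13, Cnot2 at -1.03 ± 0.10 and Cnot4 at -0.92 ± 0.08 formed a middle set. The CAF1-type genes Cnot7 at -0.62 ± 0.11 and Cnot8 at -0.45 ± 0.11, with Cnot3 at -0.34 ± 0.13 (adjusted p = 0.0393), were nearest to 0. A lower TRAP level in 12 of 12 lysates was seen for 6 members, namely Cnot1, Cnot2, Cnot4, Cnot6, Cnot6l and Cnot8, beside 40.6% of genes.

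**Figure D5:**
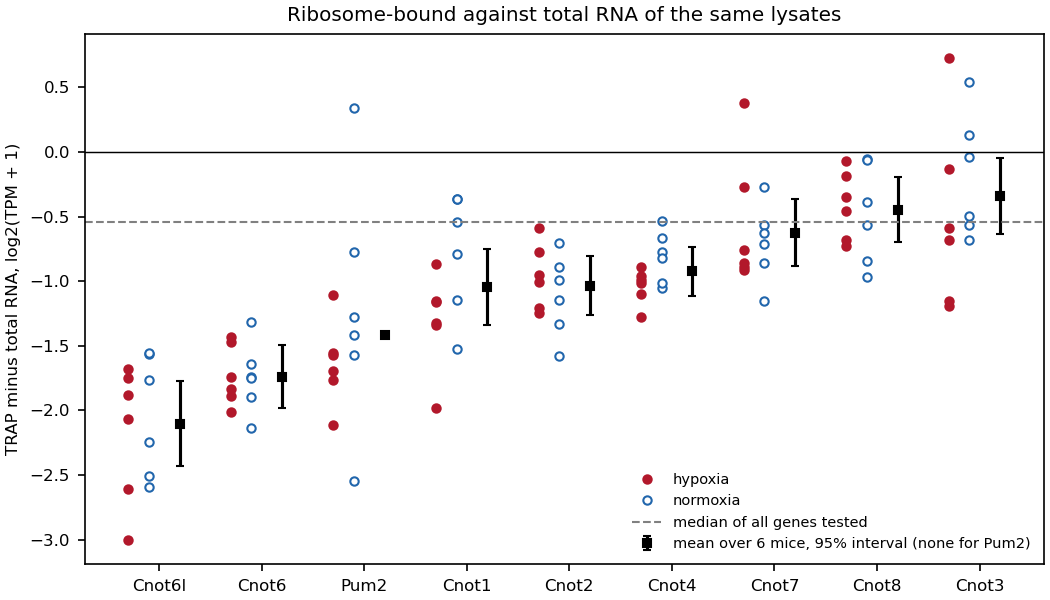
TRAP minus total RNA on the log2(TPM + 1) scale for each lysate, hypoxic in filled and normoxic in open circles, with the mean over 6 mice as black squares and its 95% interval for the 8 CCR4-NOT genes. The dashed line is the median of all genes tested, -0.54. Cnot6l, Cnot6 and Pum2 lie below it, and Cnot7, Cnot8 and Cnot3 lie around it.

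Since the median gene stood at -0.54, the members are also given relative to it. On that scale Cnot6l was at -1.56, Cnot6 at -1.19, Pum2 at -0.88, Cnot1 at -0.50, Cnot2 at -0.49, Cnot4 at -0.38, Cnot7 at -0.08, Cnot8 at 0.10 and Cnot3 at 0.20. Only 1.01% of genes lay lower than Cnot6l, 3.07% lower than Cnot6 and 8.20% lower than Pum2, whereas 63.6% lay lower than Cnot3. When libraries were rescaled by size factors, which moved the median of all genes to -0.07, 5 of the 8 CCR4-NOT genes were still called lower, beside 30.3% of genes, and the signs of Cnot3 (0.29), Cnot8 (0.20) and Cnot7 (0.01) turned without passing the threshold. Transcript length moved with this measure, with a Spearman correlation of -0.66 across 10751 genes, and the 3' untranslated region length gave -0.52. These genes are not independent replicates, and the part of length in the members' values was not tested. By GENCODE the transcripts of Cnot6l (8564 bases), Cnot1 (8364 bases) and Pum2 (6226 bases) are the longest of the 9, while that of Cnot6 is 2498 bases.

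Ratios between paralogues avoid the scaling of a library. They do not remove transcript length, which differs between Cnot6l and Cnot6 as given above, and its part in the ratios was not tested. The ratio of Cnot6l to Cnot6 TPM had a median over mice of 0.568 in TRAP RNA (range 0.424 to 0.745) and 0.775 in total RNA (0.602 to 1.03), and it was lower in TRAP RNA in 5 of 6 mice. An exact sign-flip permutation test over the 6 mice, two-sided, gave p = 0.0625, or 0.125 adjusted over 2 pairs, where 0.03125 is the smallest p it allows. The ratio of Cnot8 to Cnot7 was 1.67 in TRAP RNA and 1.59 in total RNA (exact permutation p = 0.438, adjusted 0.438).

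Around these members, genes of the same pathway gave few calls with oxygen over 6 mice. The other complex and partner genes described here are Cnot9, Cnot10, Cnot11, Tnks1bp1, Nanos1 and Pum3, and 0 of these 6 rose or fell in total or TRAP RNA (limma-trend), beside 3.97% and 0.0343% of all genes called in the same order. At an unadjusted p under 0.05 there was 1 of 6 in total RNA and 0 of 6 in TRAP RNA, beside 22.6% and 14.7% of all genes. Nanos1, which encodes an RNA-binding partner of Pumilio proteins, had the widest difference among them in total RNA, -0.42 ± 0.16 (SE, limma-trend, adjusted p = 0.176). The median of the 6 was -0.06 in total RNA, beside -0.01 for all genes.

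Among 22 tested decapping and 5'-decay genes 0 rose and 1 fell, the translational repressor Gigyf2, with 10.9 ± 4.29 TPM in hypoxia and 16.7 ± 5.04 TPM in normoxia and a log2 difference of -0.59 ± 0.11 (adjusted p = 0.0372). Its call held in 3 of 12 alternative settings, with adjusted p from 0.0390 to 0.833. None of 22 tested recruiters of CCR4-NOT passed, including the RNA helicase gene Ddx6 (1.05 ± 0.38, adjusted p = 0.159) and Zfp36 (-0.30 ± 0.10, adjusted p = 0.124). None of 10 other deadenylase and poly(A) protein genes and none of 8 reported Pumilio targets passed either. These counts also stand beside 3.97% of all genes called. At an unadjusted p under 0.05 in total RNA there were 6 of 22 decapping genes, 4 of 22 recruiters, 1 of 10 other deadenylase and poly(A) genes and 2 of 8 reported targets, beside 22.6% of all genes, so 0 or 1 call is not read as a result about a list. In TRAP RNA none of these lists held a gene past the threshold, beside 0.0343% of all genes, and at an unadjusted p under 0.05 there were 1, 2, 1 and 0 genes in the same order of lists.

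Against total RNA, 64.2% of all genes were called lower and 8.17% higher in TRAP RNA. The counts of the lists are read beside these shares. Transcript length moved with this measure across genes, as given above, and its part in the values of the lists was not tested. TRAP levels were lower for 22 of 22 recruiters, with a list median of -1.34 beside -0.54 for all genes, Ddx6 at -2.67 ± 0.36 and the cytoplasmic polyadenylation gene Cpeb4 at -2.33 ± 0.40. Reported Pumilio targets were lower for 7 of 8 genes (median -1.44), other deadenylase and poly(A) genes for 9 of 10 (median -0.80), and the 6 other complex and partner genes for 5 of 6 (median -0.70). Decapping genes split, with 11 lower and 4 higher of 22 (median -0.38). The 4 that were higher all encode Lsm ring proteins of decay or splicing, Lsm7 (0.88 ± 0.09), Lsm3 (0.65 ± 0.12), Lsm5 (0.53 ± 0.07) and Lsm4 (0.36 ± 0.10). Under size factors 30.3% of all genes were called lower and 27% higher. On that scaling 16 of 22 recruiters were lower and 0 higher, reported targets had 6 of 8 lower and 1 higher, and other deadenylase and poly(A) genes had 5 of 10 lower and 1 higher. The other complex and partner genes had 2 of 6 lower and 1 higher, and decapping genes had 6 of 22 lower and 10 higher.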

How the data were processed

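Poly(A) libraries of total and TRAP RNA were deposited by the authors as 2 tables of TPM, 12 libraries each. Per the submitters' processing notes HISAT and DESeq2 were used with the build GRCm38. Their versions and settings, and whether counting used strand, are not stated there. TPM keeps no depth, so no counting interval was possible. Genes reaching 1 TPM in 3 or more of the libraries fitted were kept (all 9 members passed). On log2(TPM + 1) values limma-trend (limma 3.58.1, R 4.3.3) was run over all genes, with Benjamini-Hochberg adjustment over all genes tested, two-sided, threshold 0.05. Log2 differences are on that scale, which understates the change of low genes. Fits within a genotype and of the interaction used the 12 libraries of a fraction. Except where a mouse block is named, they did not pair the libraries of a mouse. Comparisons over 6 mice used differences within a mouse. By the labels the same mouse number marks the same animal. Deviations of its normoxic and hypoxic libraries correlated in every mouse, at 0.397 to 0.717 for TRAP RNA and 0.565 to 0.795 for total RNA. Normoxic libraries of the different mice HET-129 and KO-301 correlated at 0.386 in TRAP RNA and 0.653 in total RNA, so such values do not show a shared animal. The fits were tested on simulated data. Alternatives were a pseudocount of 0.1, no filter, size factors, quantile normalization, the block or its absence, fewer libraries, and mice left out. Members were named by symbol, and genes of the pathway lists by passing the threshold or by the largest differences. The members and lists were chosen with earlier results of these data known. Gene models came from GENCODE M21 and promoters from RefSeq. Results of some single genes are not reported here.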

Additional observations from a re-analysis of the deposited data

Results flagged for a closer look

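Pum2 in total RNA was the single member whose oxygen difference had one sign in every KO mouse and the other in every HET mouse. The mean log2 difference between hypoxia and normoxia was 1.29 in the 3 KO mice and -0.12 in the 3 HET mice, so the KO difference exceeded the HET difference by 1.41. The KO part of this value chose the gene, so the difference between genotypes is a description, and no test of it is given. In TRAP RNA of the same lysates the corresponding value was -0.17 ± 0.63 (SE). Of 36 sets of 6 oxygen or fraction differences examined, 0 had a single value far from the rest by Dixon's criterion at 95%.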

How the results depend on the processing

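Of 168 recomputed counts of members past the threshold, 166 stayed within 1.5 times the value of the fits above. In the 13 comparisons other than TRAP against total RNA that value was 0, so most of these counts were 0 and stayed 0. With 3 mice a genotype and few calls over all genes, they are not read as stability. With the mouse as a block, 1 member instead of 0 passed in the KO total RNA contrast, namely Pum2 on the contrast that chose it, from which nothing is read. The block changed no other member's call in the within-genotype and interaction fits. With quantile normalization 5 instead of 9 members, or 4 instead of 8 without Pum2, were called lower in TRAP than in total RNA. Leaving out 1 mouse at a time gave 8 to 9 members there and 0 in the other 13 comparisons. Reversed signs, all in TRAP against total RNA and none past the threshold, were those of Cnot3 (0.24 with quantile normalization, 0.29 with size factors), Cnot8 (0.024 and 0.20 in the same order) and Cnot7 (0.011 with size factors). The call of Cnot3 was also lost with no filter, without the block, and without KO-176 or any 1 HET mouse, with log2 differences of -0.35 to -0.24, and quantile normalization ended the calls of Cnot1 (-0.31) and Cnot7 (-0.03). Of 1512 recomputed member values 1350 kept sign and side of the threshold, and 148 that passed in no setting changed sign. Calls over all genes for hypoxia over 6 mice in total RNA ran from 48 to 224 without 1 mouse, beside 492 with all, and were 8 without HET-129 and KO-301, 201 with no filter and 0 without the block. In TRAP RNA they were 4, and 0 to 7 over the alternatives. Depth is unknown, and 3 mice a genotype limit the precision. The causes of these shifts were not tested.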
